A study of Homo sapiens with 3 samples.

Results

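The genes described here are those that more than 1 array probe measured in Huh7 cells, an established human hepatoma cell line. Cells given chlorogenic acid (CA) at 100 μM for 24 h were compared with untreated cells. The label of the untreated sample gives its treatment as none and does not mention a vehicle. In its methods the study dissolved CA in DMSO and names DMSO as the vehicle of its untreated controls. CA is an ester of caffeic and quinic acid that is abundant in coffee and other plants, and the study examined it as an inducer of tumor cell differentiation. There were 3 groups, namely untreated cells, CA 50 μM and CA 100 μM, each with 1 RNA sample on 1 one-colour Agilent array labelled with Cy3, and no group had a replicate. The labels give no separate cultures, so that treatment, culture, labelling and position on the slide cannot be told apart, and no test across samples could be made.

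Members were selected on measured values. A gene counted when at least 2 different probes with a RefSeq accession were flagged by the scanner software as well above background on both the untreated and the CA 100 μM array, which held for 3296 of the 20908 genes represented. On the array 5125 genes had 2 or more probes, so that 1829 of them did not qualify. The value of a gene was the median over its probes of log2 CA 100 μM over untreated, after each array had been scaled to the 75th percentile of its signal, which was 1059, 1207 and 1249 intensity units for untreated, CA 50 μM and CA 100 μM. The filter used the same arrays as the values, which are therefore given as a description. At its edge, SUGP1 and DPY19L3 were just inside with dimmer probes of 13.3 and 13.3 units in untreated cells, whereas EPB41 and HEPACAM were just outside with second probes of 18.8 and 18.9 units there and of 17.97 and 16.9 units at CA 100 μM.

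An expression array reports each transcript through short oligonucleotides, and different probes of 1 gene bind different stretches of its transcript or different isoforms. Each gene with several probes thus carries a check within the array that single-probe genes lack. That check covers printing, hybridisation and isoform differences, whereas 2 probes of a gene share the culture, the RNA and the array and are no replicates of the treatment. Huh7 cells derive from hepatocytes, the cells that secrete most plasma proteins and carry much of the body's intermediary and xenobiotic metabolism. The classes of genes described below include the ribosome, on which secretory cells depend, the cell cycle and chromatin. Single genes described below act in antigen presentation by major histocompatibility complex (MHC) proteins, which display peptides to T cells.

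Most hepatocyte markers were present on these arrays. Of 18 hepatocyte markers, 17 had a probe and 16 were above background on both arrays, with ALB, the serum albumin gene, at 109428 intensity units by its only probe in untreated cells. The exception was HNF4A, a defining hepatocyte transcription factor, whose probe read 9.4 units in untreated cells and 15.5 at CA 100 μM and was not above background. Of the hepatocyte markers, 5 were members, with log2 values of 0.19 for APOA1, 0.16 for KRT8, 0.04 for KRT18, -0.05 for FGA and -0.06 for GPC3. The 3 bile duct markers read 4889 to 6317 units in untreated cells, and none of the 3 lung epithelial markers was above background. Markers of other cell types were not absent, as all 4 leukocyte markers with a probe, 4 of 6 fibroblast and 3 of 5 endothelial markers were above background on both arrays, at up to 306.5, 428.3 and 480.1 units in untreated cells. Their summed signals, unscaled and over all markers with a probe, were 626.5, 614.8 and 801.2 units there. At CA 100 μM the sums were 701.2, 800.0 and 1048 units. The fibroblast sums include COL1A1, which read 2.6 and 51.7 units and was not above background on both arrays. The part of such cells in the values below was not tested. The summed signal of the hepatocyte markers, likewise unscaled, was 594937 units in untreated cells and 600809 at CA 100 μM. The CA 100 μM array was brighter as a whole, with a 75th percentile of 1249 units against 1059 on the untreated array. None of these sums was corrected for that difference, so that they show neither a rise nor a fall of a cell type. In RNA from a whole culture, fewer cells of a type and less RNA per cell cannot be told apart.

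The CA 100 μM array carried areas in which dim probes were bright on that array alone. They held 5.71% of its gene spots, against 0.139% on the untreated and 0.0881% on the CA 50 μM array. Of the members, 485 had a probe in such an area of the CA 100 μM or the untreated array, and 16 had all of them in such areas. The SD of the gene values was 0.22 in those 485 and 0.18 in the remaining 2811, and their medians were 0.04 and 0.02. The counts of calls and the list medians described at length are given also without the spots in these areas. The shares of promoter motifs are given also without the members that had a probe there.

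Gene values of the members were small. The median was 0.02 and the SD 0.18 on the log2 scale, and the middle 95% lay between -0.32 and 0.43, whereas single-probe genes had an SD of 0.26. Of the 3296 members, 839 (25.5%) had every probe above the untreated value and 738 (22.4%) every probe below it. The probes of a gene differed by a median range of 0.20, the median SD over them was 0.13, and the error model of the scanner software gave a gene value an error of 0.14. The quartiles of the gene values, -0.07 and 0.13, lay within that error of 0. By signal, the SD fell from 0.25 in the dimmest of 5 classes to 0.12 in the brightest.

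A gene was called when its value reached 1.5-fold and all its qualifying probes lay on the same side of 0. This applied to 17 members that were higher at CA 100 μM (0.516%) and 6 that were lower (0.182%). At 1.3-fold the counts were 94 higher (2.85%) and 42 lower (1.27%), and at 2-fold 1 higher (0.0303%) and 0 lower (0%). Among the 11947 genes with a single probe above background, 238 were at least 1.5-fold higher (1.99%) and 224 lower (1.87%), with no second probe to meet. Of the 17 higher calls, 10 had a probe in a disturbed area and 7 did not, and none of the 6 lower calls did. Leaving out the spots in such areas left 7 higher and 6 lower, and at 1.3-fold 71 higher and 39 lower. The calls also lay at low signal, as all 17 higher and 5 of the 6 lower ones came from the dimmest 2 of the 5 classes of signal. Among the 2101 genes with 2 or more probes over 100 intensity units on both arrays, 1 gene was called higher and 2 were called lower.

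**Figure D1:**
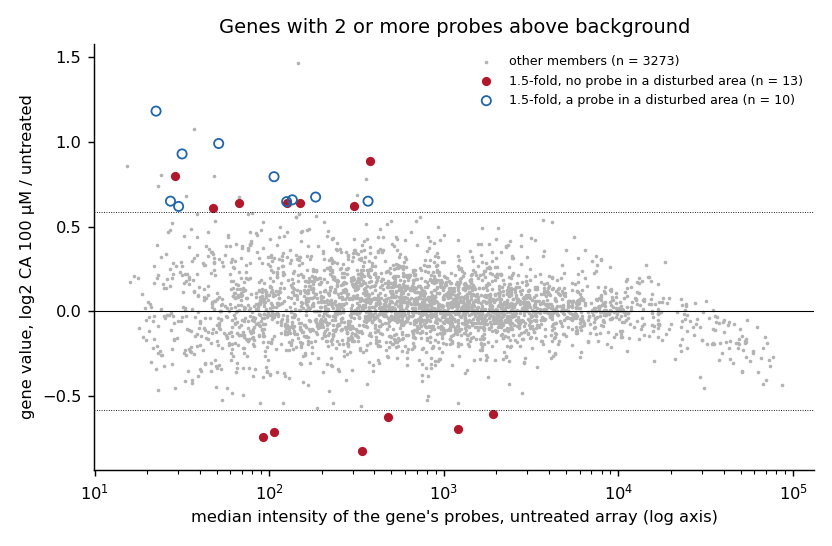
Gene value on the log2 scale (vertical axis) against the median intensity of the probes of the gene on the untreated array (horizontal log axis) for the 3296 members. Filled red points are the 13 called genes without a probe in a disturbed area, open blue circles the 10 called genes with one, and dotted lines mark 1.5-fold. The spread narrows with signal, and all the open circles lie above 0. The brightest of 5 classes of signal has a median value of -0.009.

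Of the 6 lower calls, HLA-B and ERAP1 were those in which every probe reached 1.3-fold, and both act in antigen presentation. HLA-B encodes the heavy chain of an MHC class I molecule, and its brighter probe read 1791.5 intensity units in untreated cells, 1103.5 at 50 μM and 1579.5 at 100 μM of CA. Its dimmer probe read 610.6, 292.1 and 366.4 units. Both probes were highest in untreated cells and lowest at CA 50 μM. The gene value at CA 100 μM was -0.70 (SD 0.39 over 2 probes), from probe ratios of -0.42 and -0.98, and the value at CA 50 μM was -1.07. ERAP1 encodes the aminopeptidase of the endoplasmic reticulum that trims peptides for class I molecules. Its probes read 888.0, 756.0 and 767.0 units and 64.6, 34.3 and 43.8 units in untreated, CA 50 μM and CA 100 μM cells. Here too the untreated array was highest for both probes. The ERAP1 value was -0.62, with probes at -0.45 and -0.80, and -0.76 at CA 50 μM. The values at both doses use the same untreated array and are not independent. HLA genes resemble each other, and the sequences of the probes are not used here, so that cross-hybridisation was not tested.

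In the remaining 4 lower genes, 1 dim probe carried the value. KRTAP5-4, a gene for a hair keratin-associated protein, had a value of -0.82 from probes at -0.20 and -1.45. The probe with the larger ratio read 127.0, 67.7 and 55.0 units in untreated, CA 50 μM and CA 100 μM cells, and the brighter one 549.9, 616.2 and 564.2 units. VGLL3, a cofactor of TEAD transcription factors, had -0.74 from probes at -0.08 and -1.41. FLYWCH1, a zinc finger protein gene, had -0.71 from probes at -0.20 and -1.22. MACF1 links actin filaments and microtubules, and its value of -0.61 combined a ratio of -0.07 at a probe of 3776 units with -1.15 at a probe of 34.4 units. For each of these 4 genes the ratio of the brighter probe was smaller than the error that the scanner software's model gave it, 0.20 to 0.21. Normexp background correction, under which the median of all members was 0.48, turned 5 of the 6 lower calls above 0, with ERAP1 at 0.62, KRTAP5-4 at 0.47, VGLL3 at 1.21, FLYWCH1 at 1.25 and MACF1 at 0.82, and HLA-B alone stayed below 0.

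The next 6 lower genes with all probes below 0 and none in a disturbed area reached between 1.3-fold and 1.5-fold. FXYD3, a regulator of the sodium pump, was measured by 3 qualifying probes, which read 2169, 1669 and 1774 units, 1199.5, 741.1 and 883.8 units, and 24.98, 25.8 and 20.2 units in untreated, CA 50 μM and CA 100 μM cells. All 3 were below the untreated level at CA 100 μM, with ratios of -0.53, -0.68 and -0.54 and a gene value of -0.54, and another probe was not above background. BAIAP2L2, which encodes a membrane-bending protein of cell protrusions, had -0.57 from probes at -0.54 and -0.60, and -0.26 at CA 50 μM. TNS1, the gene of the focal adhesion protein tensin, had -0.56 from probes at -0.81 and -0.31. COL11A2, a collagen chain gene, had -0.54 from probes at -0.46 and -0.63. CCRL2, an atypical chemokine receptor gene, had -0.54 from probes at -0.30 and -0.78. RNA28SN5, a gene of the 28S ribosomal RNA, had -0.52, where 1 probe was at -1.04 and the other at -0.01. Normexp turned each of these 6 above 0 other than FXYD3.

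Among the 7 higher calls outside disturbed areas, CAMK2D, BBX and HLA-DQB1 had even probes. CAMK2D encodes a chain of the calcium/calmodulin-dependent kinase CaMKII, and its probes read 133.7, 269.8 and 257.4 units and 118.7, 174.8 and 208.0 units in untreated, CA 50 μM and CA 100 μM cells. Both treated arrays were above the untreated one at both probes, with a value of 0.64 (probes 0.71 and 0.57) at 100 μM and 0.60 at 50 μM. BBX, an HMG-box protein gene, was measured by a probe printed 10 times at 74.6, 94.5 and 144.9 units and by a single spot at 59.0, 61.9 and 102.5 units. The CA 100 μM array stood above the other 2 at both probes, and the value was 0.64 at 100 μM and 0.02 at 50 μM. HLA-DQB1, the gene of an MHC class II beta chain, had 2 qualifying probes at 41.5, 39.6 and 78.8 units and at 16.0, 11.2 and 35.4 units. Its value was 0.80 at 100 μM and, from the brighter probe alone, -0.26 at 50 μM. Its other 2 probes were not above background on both arrays and went opposite ways, with ratios of -1.39 and 1.16.

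The other 4 of these higher calls had probes further apart. KMT2B, a histone H3 lysine methyltransferase gene, had the highest value of them, 0.89, from 0.15 at a probe of 734.3 units and 1.62 at a probe of 23.3 units. COPS7B, a subunit of the COP9 signalosome that acts on cullin ubiquitin ligases, had 0.64 from 0.96 and 0.33. TAOK2, a protein kinase gene, had 0.62 from 0.22 and 1.02, and BCL9L, a coactivator of beta-catenin, had 0.61 from 0.26 and 0.95. The values of these 4 at CA 50 μM were 0.13, 0.62, 0.96 and 0.83 in the same order. In 3 of the 4, the larger ratio came from the dimmer probe.

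**Figure D2:**
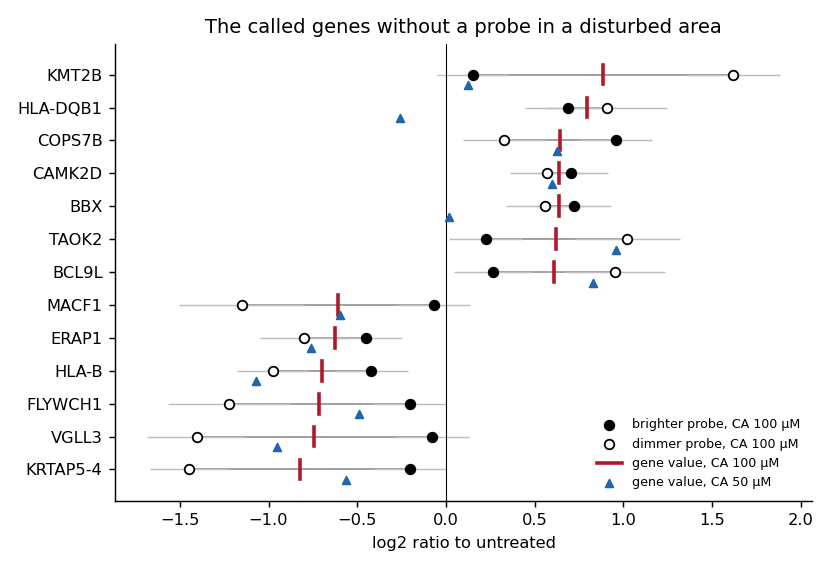
The 13 called genes without a probe in a disturbed area, with the log2 ratio to untreated on the horizontal axis. Filled and open circles are the brighter and dimmer probe at CA 100 μM with the error of the scanner software's model, red bars the gene value at CA 100 μM and blue triangles the gene value at CA 50 μM, which for HLA-DQB1 rests on 1 probe. The dimmer probe lies further from 0 in all 6 lower genes, and the triangles of KMT2B, BBX and HLA-DQB1 lie far below their red bars.

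Just under the threshold of 1.5-fold stood 5 further genes, 4 of them with probes on close ratios and TMEM209 with probes over 2-fold apart. ZBTB43, a BTB zinc finger gene, read 259.0, 394.4 and 460.9 units and 112.2, 199.96 and 191.5 units at its 2 probes in untreated, CA 50 μM and CA 100 μM cells. Its value was 0.56, with probes at 0.59 and 0.53, and 0.53 at CA 50 μM. MAZ encodes the MYC-associated zinc finger protein, and its probes read 120.1, 405.0 and 221.3 units and 39.0, 93.2 and 66.1 units. Both MAZ probes were highest at CA 50 μM, with a gene value of 0.58 at 100 μM and 1.32 at 50 μM. PPP3R1, the regulatory subunit gene of calcineurin, had 0.58 with probes at 0.55 and 0.60. LOXL3, a lysyl oxidase family gene, had 0.57 with probes at 0.53 and 0.62. TMEM209, a nuclear envelope protein gene, had 0.56 from probes at 0.03 and 1.08. The CA 50 μM values of PPP3R1, LOXL3 and TMEM209 were 0.79, 0.61 and 0.42.

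**Figure D3:**
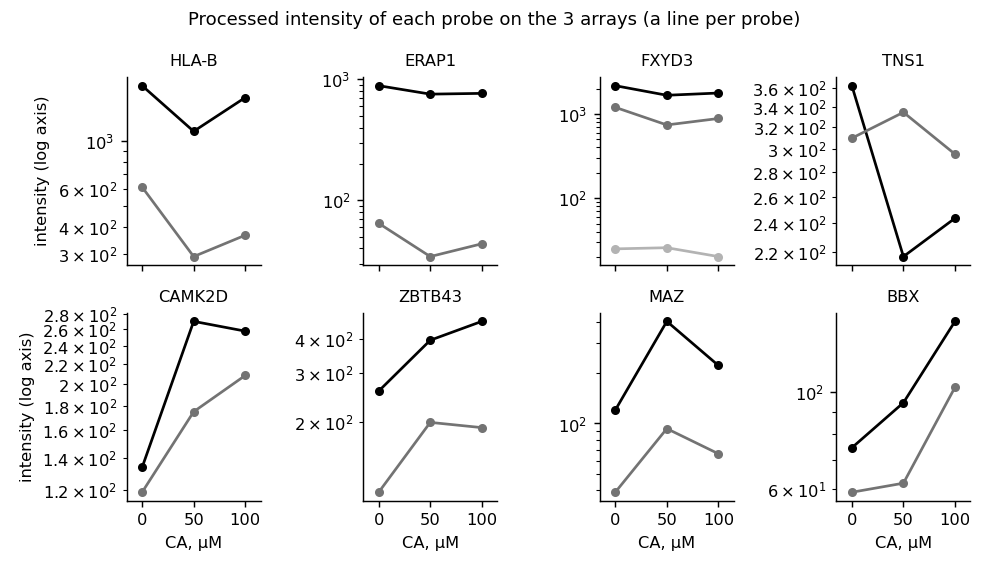
Processed intensity (vertical log axis, before scaling between arrays) of each qualifying probe on each of the 3 arrays (0, 50 and 100 μM CA) for 8 genes, with a line for each probe and 1 array at each dose. Both probes of HLA-B and ERAP1 are highest in untreated cells, both probes of CAMK2D and ZBTB43 are higher on both treated arrays, and BBX is higher mainly at CA 100 μM.

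The 10 higher calls with a probe in a disturbed area included the only 2-fold call. LRRC45, the gene of a centrosomal linker protein, had a value of 1.18 from a probe in the area at 1.76 and a probe outside it at 0.60. DIAPH3, a formin gene that nucleates actin filaments, had 0.99 from 1.59 inside and 0.39 outside. IGSF3 had 0.93 from probes at 0.08 and 1.78. ZNF773, GPATCH3, RNF157, MAN1C1, ZNFX1, RGS12 and MED18 had values between 0.62 and 0.80. Without the area, none of these 10 kept 2 probes, and the part of the bright band in their values was not tested.

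The promoters of the 5 called genes with every qualifying probe at least 1.3-fold changed and none in a disturbed area are shown, since these are the genes in which both probes carried the call. The sequences run from 250 bases before to 50 bases after the gene start on the strand of the gene and are those of RefSeq for GRCh38.p14. Capitals mark every match on either strand to 5 motifs. The CCAAT box and the TATA box were searched as CCAAT and TATAAA. The E-box, the site of many basic helix-loop-helix factors, was searched as CACGTG. The cyclic AMP response element was searched as TGACGTCA. The core of the interferon-stimulated response element was searched as GAAA repeated after a gap of 2 bases, and no capitals of 2 motifs overlap in these windows.
HLA-B (chr6:31357130-31357429, minus strand): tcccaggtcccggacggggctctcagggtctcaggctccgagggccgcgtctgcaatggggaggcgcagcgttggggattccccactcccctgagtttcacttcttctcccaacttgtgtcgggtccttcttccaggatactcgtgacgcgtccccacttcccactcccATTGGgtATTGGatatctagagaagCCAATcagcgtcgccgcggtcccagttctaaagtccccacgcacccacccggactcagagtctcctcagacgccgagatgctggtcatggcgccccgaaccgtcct
ERAP1 (chr5:96807896-96808195, minus strand): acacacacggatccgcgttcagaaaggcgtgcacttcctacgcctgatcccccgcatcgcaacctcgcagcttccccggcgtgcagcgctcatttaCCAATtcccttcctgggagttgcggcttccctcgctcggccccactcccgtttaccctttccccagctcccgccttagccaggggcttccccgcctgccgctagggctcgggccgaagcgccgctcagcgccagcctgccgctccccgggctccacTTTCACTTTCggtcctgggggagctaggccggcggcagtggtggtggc
HLA-DQB1 (chr6:32666608-32666907, minus strand): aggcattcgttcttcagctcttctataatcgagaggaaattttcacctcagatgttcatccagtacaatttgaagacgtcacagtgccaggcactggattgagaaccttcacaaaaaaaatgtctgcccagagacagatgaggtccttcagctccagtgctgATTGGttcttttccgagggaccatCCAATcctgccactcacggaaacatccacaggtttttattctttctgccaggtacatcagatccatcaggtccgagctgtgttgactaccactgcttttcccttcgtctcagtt
BBX (chr3:107522712-107523011, plus strand): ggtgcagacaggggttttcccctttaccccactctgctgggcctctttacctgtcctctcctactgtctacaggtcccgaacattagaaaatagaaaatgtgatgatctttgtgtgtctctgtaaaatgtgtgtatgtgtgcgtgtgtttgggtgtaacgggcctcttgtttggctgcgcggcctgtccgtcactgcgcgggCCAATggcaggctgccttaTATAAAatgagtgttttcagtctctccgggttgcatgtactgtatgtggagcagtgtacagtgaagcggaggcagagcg
CAMK2D (chr4:113761689-113761988, minus strand): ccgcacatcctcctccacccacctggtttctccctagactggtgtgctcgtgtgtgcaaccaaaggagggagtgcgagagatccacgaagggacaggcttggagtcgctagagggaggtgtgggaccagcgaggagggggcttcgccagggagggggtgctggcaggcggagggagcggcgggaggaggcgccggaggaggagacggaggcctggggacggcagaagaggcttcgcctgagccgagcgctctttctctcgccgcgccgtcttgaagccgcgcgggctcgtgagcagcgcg

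The HLA-B window holds 3 CCAAT matches and the ERAP1 window 1. Only ERAP1 among the 5 has an exact match to the searched core of the interferon-stimulated response element. Variants of the motifs were not searched, so that a window without a match can still hold a variant. The HLA-DQB1 window holds 2 CCAAT matches, BBX holds a CCAAT and a TATA match, and CAMK2D holds none of the 5 motifs. A CCAAT match occurred in 35.7% of the 27305 promoters of the table, in 37.2% of 2689 members with a promoter, in 38 of 84 members at least 1.3-fold higher (45.2%) and in 11 of 33 at least 1.3-fold lower (33.3%). The response element core occurred in 3.65% of all promoters, 2.60% of the members', 1.19% of the higher and 6.06% of the lower ones, the last being 2 of 33. E-boxes occurred in 7.44% of all promoters, 10.5% of the members', 9.52% of the higher and 3.03% of the lower ones. TATA boxes occurred in 11.95% of all promoters, 5.80% of the members', 4.76% of the higher and 15.2% of the lower ones. Cyclic AMP response elements occurred in 1.98% of all promoters, 3.31% of the members', 1.19% of the higher and 3.03% of the lower ones. Without the genes that had a probe in a disturbed area, 64 higher and 31 lower promoters remained, with CCAAT in 42.2% and 35.5%, the response element core in 1.56% and 6.45%, E-boxes in 12.5% and 0%, TATA boxes in 6.25% and 12.9%, and cyclic AMP response elements in 0% and 3.23%. These matches describe the letters of the windows and say nothing of binding.

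The brighter and the dimmer probe of a gene, ranked by their mean over the 2 arrays compared, differed in 1 direction more often than in the other. In 2382 members with exactly 2 qualifying probes, above background on all 3 arrays and outside disturbed areas, log2 CA 100 μM over untreated had a median of 0.08 at the dimmer and -0.05 at the brighter probe. The brighter probe was the lower of the pair in 71.5% of these genes, with a median difference of -0.12 (SD 0.28). The difference grew with the gap in signal between the probes. Over 4 equal classes of the gap it was -0.05 at the smallest gap, then -0.11 and -0.13, and -0.26 at the largest, where the probes lay at least 3.55 apart in log2 intensity. It was present at every signal level of the gene, at -0.07 in the dimmest of 4 classes, -0.14 and -0.13 in the next and -0.12 in the brightest.

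The same genes gave a median difference of -0.15 for CA 50 μM against untreated, from -0.05 at the smallest gap to -0.32 at the largest, and of 0.03 for CA 100 μM against CA 50 μM, from 0.02 to 0.06. Both ratios to untreated use the one untreated array, on which every gene value given here rests. Scaling changed the size only, to -0.09 after quantile normalization, -0.11 after cyclic loess, -0.09 in the log2 table deposited by the authors and -0.61 after normexp background correction. The difference was thus larger for both doses against the untreated array than between the doses. The positions of the probes along their transcripts and measures of RNA quality are not used here, and the part of the quality of the untreated RNA in the difference was not tested.

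**Figure D4:**
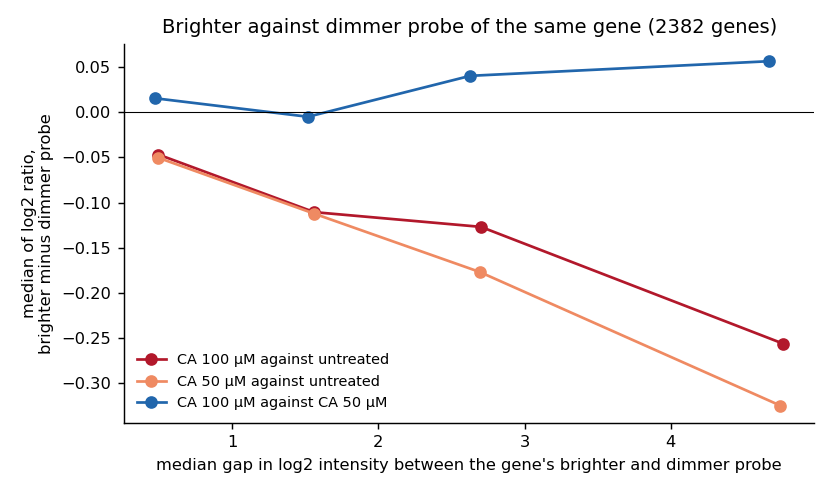
Median of the log2 ratio of the brighter probe minus that of the dimmer probe (vertical axis) in 4 classes of the gap between their log2 intensities (horizontal axis, class medians), for 2382 genes with 2 probes. Each point covers 595 or 596 genes. The lines of both doses against untreated decline with the gap, to -0.26 at 100 μM and -0.32 at 50 μM, while the line of CA 100 μM against CA 50 μM stays between -0.005 and 0.06.

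Agreement between probes was limited. Over the 2400 members with 2 probes and none in a disturbed area, the ratios of the brighter and the dimmer probe correlated across genes with Pearson's r of 0.23 and Spearman's rho of 0.22, and r was 0.13 when the probes were ordered by name. By class of signal r lay between 0.17 and 0.26. Genes are not independent replicates, and both probes share the 2 arrays. Where the brighter probe was at least 1.5-fold higher, in 10 genes, the dimmer probe lay on the same side in 6 and reached 1.5-fold in 1. Where it was at least 1.5-fold lower, in 12 genes, the dimmer probe lay on the same side in 10 and reached 1.5-fold in 0. Spots of the 200 member probes printed 10 times had a median SD of 0.066 in log2 signal within an array. The SD of 0.13 between the probes of a gene is of log2 ratios of 2 arrays, so that the 2 measures are unlike.

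A total of 58 members (1.76%) had probes at least 2-fold apart, 28 of them without a probe in a disturbed area. SERPINA3, which encodes the acute-phase protein alpha-1-antichymotrypsin, had the highest gene value of all members, 1.46, but no common side. Its probes read 1449.5, 424.6 and 505.3 units, 146.7, 123.9 and 477.7 units, and 43.7, 46.0 and 249.96 units in untreated, CA 50 μM and CA 100 μM cells, with ratios of -1.76, 1.46 and 2.28 at CA 100 μM. PRP4K, a splicing-associated kinase gene, had 1 probe that went from 3418 units in untreated cells to 693980 at CA 100 μM, a ratio of 7.43, on a spot with a background flag. Its other 2 probes gave 0.16 and 0.24, so that the median over probes kept the gene at 0.24. The 4 probes of TET2, a dioxygenase gene that oxidises methylated cytosine, ran from -1.16 to 0.40. The 2 probes of the keratin pseudogene KRT42P gave -0.23 and 1.84.

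Members with 4 or more probes, 87 genes with up to 8 probes, had values from -0.43 to 0.32, so that none reached 1.5-fold. All probes lay on the same side in 20 of them, 9 higher and 11 lower. RPS3A, a protein of the small ribosomal subunit, had probes at -0.33, -0.28, -0.21 and -0.34 and a value of -0.31. RPL39, of the large subunit, had -0.25 from 4 probes between -0.30 and -0.13. TSPAN14, a tetraspanin gene, had 0.30 from 4 probes between 0.18 and 0.37. HM13, the gene of signal peptide peptidase, had 0.24 from 4 probes between 0.18 and 0.67, and UPF2, a factor of nonsense-mediated mRNA decay, had 0.24 from 5 probes between 0.01 and 0.67. The CA 50 μM values of these 5 genes were -0.29, -0.29, 0.50, 0.53 and 0.08 in the order RPS3A, RPL39, TSPAN14, HM13 and UPF2.

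Gene lists are described by their medians beside 0.02 for all members. Genes for cytosolic ribosomal proteins, which build the translating ribosome, had the lowest median of the lists, -0.19 over 37 members and -0.21 at CA 50 μM. Of these 37, 34 were below 0, 23 had every probe below 0 and 1 had every probe above 0, against 22.4% and 25.5% among all members. RPS28 had the lowest value, -0.44, and RPL23A had -0.43. RPS14, at 0.07, had the highest value. They were also among the brightest genes on the array, with a median of 43711 units in untreated cells. The list median was -0.18 without disturbed areas, -0.02 after quantile normalization, -0.07 after cyclic loess, -0.17 after centring on the median, -0.51 after normexp and 0.00065 in the log2 table deposited by the authors, so that its direction against 0 rests on the scaling. Against the median of all members it was -0.21, and under those 5 scalings -0.05, -0.11, -0.21, -0.98 and -0.03. UQCRH of respiratory complex III, at 43610 units and a value of -0.28, and FTH1, the ferritin heavy chain gene, at 69947 units and -0.40, were likewise bright and below 0. The oxidative phosphorylation list as a whole, 15 members, had a median of -0.04, with 10 of 15 below 0 and COX6B2, the testis isoform of a cytochrome oxidase subunit, lowest at -0.43.

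Cell cycle genes lay slightly above 0. The 18 members of DNA replication and S phase had a median of 0.14, with 16 of 18 above 0 and 8 with every probe higher, where 56.5% of all members were above 0 and 25.5% had every probe higher. E2F7, a repressor of the E2F family, had 0.44 with probes at 0.12 and 0.76. UHRF1, which guides maintenance methylation of DNA, had 0.39 with probes at 0.19 and 0.59. MCM5, a subunit of the replicative helicase, had 0.29 with probes at 0.28 and 0.30. PCNA, the sliding clamp of the polymerase, had -0.05. The 21 mitotic genes had a median of 0.10, with 19 of 21 above 0 and 11 with every probe higher. PLK1, a mitotic kinase, had 0.36 with probes at 0.09 and 0.64, and 1.01 at CA 50 μM. MKI67, the proliferation marker, had 0.32 with probes at 0.30 and 0.34, and CCNB1, mitotic cyclin B1, had -0.00023. At CA 50 μM the list medians were 0.06 and 0.01. By the brightest probe of each gene they became -0.01 for S phase and 0.04 for mitosis at CA 100 μM, where all members had a median of -0.04. Without disturbed areas they were 0.16 and 0.09.

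Chromatin genes showed a similar shift. The 39 genes of DNA methylation and histone modification had a median of 0.12, 30 of 39 were above 0, against 56.5% of all members, and 5 were at least 1.3-fold higher with all probes on the same side, where 2.85% of all members were. These 5 were KMT2B, SIRT2, a deacetylase gene (0.48), KDM2B, a histone demethylase gene (0.44), BRD3, a reader of acetylated histones (0.39), and UHRF1. KDM7A, another demethylase gene, was lowest at -0.26. The median was 0.11 without disturbed areas and 0.01 by the brightest probe, and turned to -0.04 by the probe nearest to 0, where all members had -0.01. The 12 histone genes had a median of 0.11 and 0.10 without disturbed areas, with 7 of 12 higher at every probe against 25.5% of all members, led by H2BC21 at 0.47. Histone genes are similar in sequence, and H2BC18 had -0.13 at 100 μM and 0.92 at 50 μM. The medians of the S phase, mitosis, chromatin and histone lists stayed above 0 under each of 5 other scalings, and relative to all members the S phase and mitosis medians turned negative under normexp, to -0.10 and -0.37.

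**Figure D5:**
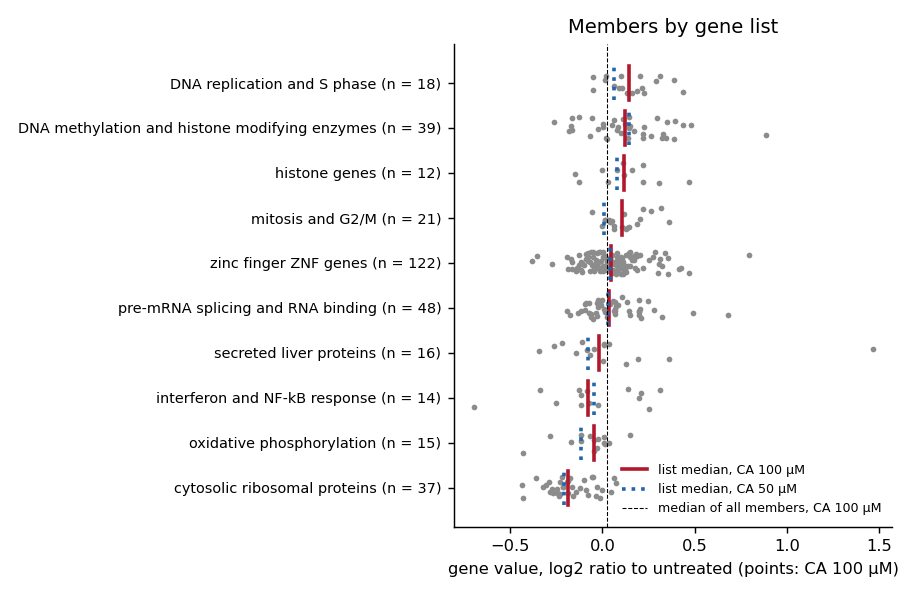
Gene value at CA 100 μM on the log2 scale (horizontal axis) for the members of 10 gene lists, 1 point per gene. Red bars mark the list median at CA 100 μM, dotted blue bars that at CA 50 μM and the dashed line the median of all members, 0.02. The ribosomal protein genes lie mostly below 0, the S phase and mitotic genes mostly above it, and the single points far from their lists are SERPINA3 at 1.46, KMT2B at 0.89, ZNF773 at 0.80 and HLA-B at -0.70.

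The lists of liver function centred near 0. The 16 secreted liver proteins had a median of -0.02, with 6 lower and 2 higher at every probe, where the shares of all members were 22.4% and 25.5%. CP, the gene of the copper carrier ceruloplasmin, had -0.35 with probes at -0.32 and -0.37, C1R of the complement cascade had -0.27, and SERPING1, the inhibitor of complement C1, had 0.36 with all 3 probes above 0. The 18 genes of drug and polyphenol metabolism had a median of -0.05, from -0.36 for CYP3A7, a fetal cytochrome P450, to 0.43 for GSTM2, a glutathione transferase, whose CA 50 μM value was 0.86. Normexp turned C1R and CYP3A7 above 0, to 0.86 and 1.12. The 9 NRF2 targets had -0.01 and the 6 genes of ATF4 and the unfolded protein response had -0.01. Fatty acid oxidation (4 members, 0.06), sterol and fatty acid synthesis (9 members, 0.01) and glycolysis and gluconeogenesis (10 members, 0.02) also lay near the median of all members, and without disturbed areas the glycolysis median turned to -0.08. LDHB, a lactate dehydrogenase gene, was -0.38 at 100 μM and -1.49 at 50 μM, and PFKP, a phosphofructokinase gene, was 0.29 and -1.43.

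The 14 genes of the interferon and NF-kB response had a median of -0.08, and -0.08 without disturbed areas, with 5 of 14 above 0 against 56.5% of all members. Normexp turned the median to 0.47, or -0.01 against that of all members. Beside HLA-B, IFITM1, an interferon-induced membrane protein gene, had -0.34 and -0.68 at CA 50 μM, and OAS2, an antiviral synthetase gene, had -0.25 with probes from -0.85 to 0.31. In contrast, RELA, an NF-kB subunit gene, had 0.25 and STAT3 had 0.21, each with both probes above 0, and their CA 50 μM values were 0.52 and 0.50. Among the 122 ZNF genes the median was 0.05, 2 were at least 1.3-fold higher and 1 lower, near the shares of all members. The 62 solute carriers had 0.01, and 3 were at least 1.3-fold lower, against 1.27% of all members, namely SLC9A4 (-0.52), a sodium/proton exchanger gene, SLC26A1 (-0.47), a sulfate transporter gene, and SLC16A12 (-0.39), a creatine transporter gene. Normexp turned SLC26A1 and SLC16A12 above 0. Of the 31 genes of actin, tubulin and motility, CFL1, the actin-severing cofilin, had 0.43 with probes at 0.41 and 0.45, and 1.06 at CA 50 μM, whereas TMSB4X, an actin-sequestering thymosin, had 0.41 and -0.21. The medians of the lists not described above lay between -0.09, for 8 liver transcription factor genes, and 0.13, for 8 genes of G1 cyclins, their kinases and inhibitors.

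Of the genes the study followed up, 3 were members, and they were chosen by the study on these samples. MCM7, a helicase subunit gene, had 0.31 from probes at -0.02 and 0.64, where the brighter read 15549, 19126 and 18134 units and the dimmer 254.5, 465.7 and 466.4 units in untreated, CA 50 μM and CA 100 μM cells. ACTB, the beta-actin gene, had -0.19 from probes at -0.39 and 0.01. SUMO2, a ubiquitin-like modifier gene, had -0.0037 from 3 probes between -0.04 and 0.15. The MCM7 and ACTB pairs each hold a brighter probe below a dimmer one.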

How the data were processed

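RNA of Huh7 cells went onto 1 Agilent array for each of 3 groups, after amplification and Cy3 labelling by the authors. The authors scanned the arrays and extracted the signal with Agilent Feature Extraction 11.0.1.1, and the deposited processed signal is an intensity in arbitrary units, background-subtracted and not scaled between arrays. The authors also deposited a log2 value per probe, made by a method not given in the sources used here, whose 3 columns share a median of 6.22. Its correlations with the log2 processed signal were 0.99995 or more, and it served as an alternative.

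From the deposited intensity, log2 values were centred on the 75th percentile that unflagged gene spots had on the array, spots of a probe were averaged, and probes were joined to genes through their RefSeq accession and a RefSeq gene table of GRCh38.p14, which named 3237 members and left 59 under their accession. A probe qualified when at least 50% of its spots carried the flag for signal above background on each array, and the gene value was the median over 2 or more qualifying probes. Genes of 1 name with several accessions were kept together (813 members). No test was made, since each group had 1 array, and a change of at least 1.5-fold with all probes on the same side was called. The 3 arrays give no error between cultures, so that their number limits the precision of every value. Named genes were the 12 highest and 12 lowest with all probes on the same side and none in a disturbed area, up to 3 per list, the members that the study followed up, those with 4 or more probes or the most divergent probes, the called genes and those at the edge of the filter. Some others were singled out within their lists after their values were seen. The members, lists and rules were chosen with earlier results of these data known. A disturbed area was a window of 17 by 7 spots with at least 5 spots, and at least 25% of dim probes, at least 4-fold brighter on 1 array alone. The alternatives were 3 other scalings, normexp on median spot intensities with an offset of 50, the deposited log2 table, other summaries of probes, other filters, and leaving out disturbed or saturated spots. The scripts were tested on simulated data. The software was limma 3.58.1 in R 4.3.3, and scipy 1.17.1, pandas 2.3.3, numpy 2.4.6 and matplotlib 3.10.9 in Python 3.11.15.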

Additional observations from a re-analysis of the deposited data

How the results depend on the processing

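With 1 array per group, every value describes these 3 arrays, no replicate could be left out, and the depth of the result is limited by dim probes. No paired analysis was possible because each group had 1 array. Counts are given as higher and lower members, and all alternatives other than those named kept the counts within 1.5 times.

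Normexp background correction moved the higher counts most, and keeping dim probes the lower ones. Normexp gave 1290 and 84 at 1.3-fold, 1123 and 17 at 1.5-fold and 712 and 1 at 2-fold, with a median gene value of 0.48 and an SD of 0.62. Of 143 named genes 32 changed sign under it, 27 of them to above 0. Of those at least 1.3-fold changed with all probes on the same side it reversed 14, namely BAIAP2L2 (1.02), CCRL2 (1.20), COL11A2 (1.27), COX6B2 (0.54), ERAP1 (0.62), FLYWCH1 (1.25), KRTAP5-4 (0.47), MACF1 (0.82), RNA28SN5 (1.56), SLC16A12 (0.33), SLC26A1 (1.96), TNS1 (0.33), VGLL3 (1.21) and ZNF501 (1.41), so that of the lower calls HLA-B alone stayed below 0. The remaining 18 lay under that size or had probes on both sides. The cause was not tested. With dim probes kept, the counts were 249 and 273 at 1.3-fold, 137 and 150 at 1.5-fold and 47 and 34 at 2-fold over 5125 genes, with an SD of 0.37. With probes over 100 intensity units they were 26 and 14, 1 and 2, and 0 higher at 2-fold. With 3 or more qualifying probes they were 6 and 4 at 1.3-fold, and 0 and 0 at 1.5-fold and 0 higher at 2-fold, over 497 genes.

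The brightest probe gave 52 higher at 1.3-fold, 11 and 10 at 1.5-fold and 1 lower at 2-fold, and the probe nearest to 0 gave 25 and 17, 2 and 0, and 0 higher at 2-fold. Quantile normalization and the deposited log2 table each gave 10 lower at 1.5-fold. The number higher at 2-fold was 2 after cyclic loess, in the log2 table and by the mean over probes, and 3 after centring on the median. Leaving out disturbed areas gave 7 higher at 1.5-fold and 0 at 2-fold, and the call on the gene value alone gave 27 and 3. Of the 23 called genes, quantile normalization and the log2 table each kept 14 of 17 higher and 6 of 6 lower ones, and cyclic loess kept 16 and 5.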

Other observations

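The 1829 genes with 2 or more probes that were not among the 3296 members included few that crossed the background level. In these, at least 2 probes were above background on 1 of the 2 arrays and not on the other. Of 5 genes that went from background in untreated cells to above it at CA 100 μM, 2 (BCL11A and RASSF3) did so with both such probes in disturbed areas. Outside them were FCHSD2, HDAC11 and MAP4, with median intensities of 11.3, 12.3 and 12.1 units in untreated cells, 24.5, 18.1 and 30.4 at CA 50 μM and 28.04, 18.03 and 20.8 at CA 100 μM. Going to background were 6 genes, 5 of them with no probe in a disturbed area. Among these, GLYAT, a mitochondrial glycine acyltransferase gene of liver and kidney, read 14.2, 9.8 and 5.1 units, and FOXP3, a transcription factor gene of regulatory T cells, read 15.6, 10.5 and 8.0 units. CCDC158, LINC01061 and SPDYE2 read between 17.3 and 17.99 units in untreated cells and between 10.6 and 15.3 at CA 100 μM. Each of these genes was counted by 2 probes, and any further probes are not described. Of the genes named here, the array held 7 probes of LINC01061, 5 of MAP4, 4 of BCL11A and 3 each of FCHSD2, HDAC11 and SPDYE2. The intensities of these genes lie near the edge of detection and carry no test.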
